A study of Mus musculus with 7 samples.

Results

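The formins Fmnl1, Fmnl2, Fmnl3, Diaph1, Diaph2, Daam1 and Inf2 and the Ena/VASP proteins Evl, Vasp and Enah build unbranched actin filaments. Their transcripts were followed in cortical microglia of mice with and without a conditional deletion of Srgap2. These 10 genes were taken by symbol from a count table of 23420 genes. There, 8 stood under the listed symbol and 2 under an older one, Diaph1 as Diap1 and Diaph2 as Diap2. Of the 10, 9 held enough counts to be tested, and Enah did not. RNA was sequenced from microglia of mice at postnatal day 30, sorted from cortex as CD11b+, CD45low and CX3CR1+ cells, 1 numbered mouse per library. The cKO group (n = 4) carried Tmem119-CreERT2 and the floxed Srgap2 f/f alleles, and the WT group (n = 3) carried Srgap2 f/f without Cre. Both groups had been given tamoxifen, 75 ug per g at each of 2 doses on postnatal days 8 and 10, so floxed alleles and drug were common to all 7 mice. Cre was expressed from a Tmem119 driver, which acts in microglia, and only cKO mice had it, so the deletion and the presence of the recombinase cannot be told apart. Sex, litter and batch are not in the labels.

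Formins hold the growing, or barbed, end of an actin filament through a paired FH2 domain and feed it with profilin-bound actin through a proline-rich FH1 domain. Most are folded shut until they are activated. Ena/VASP proteins are tetramers that also follow barbed ends, add actin and delay the capping of the filament. In macrophages these families serve the protrusions, adhesions and phagocytic cups with which the cell moves and samples its surroundings. The protein encoded by the deleted gene, srGAP2, was not measured here. It binds membranes through its F-BAR domain and is known to bind the FH1 domain of FMNL1 through its SH3 domain. This makes the formins a direct question for this genotype.

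Total counts ranged from 27016173 to 35707304 per library. Srgap2, the deleted gene, had 344, 257, 275 and 212 CPM across cKO replicates 1 to 4, and the WT libraries had 979, 691 and 693. CPM is the count of a gene relative to a library size scaled by TMM factors. Reads from outside the deleted stretch are part of this count. The summed level of 12 microglial markers was 59030 to 68360 CPM in cKO and 69000 to 71430 CPM in WT, and 1 of the 12, Tmem119, fell (adjusted p = 0.046, edgeR's quasi-likelihood test). Tmem119, whose driver expressed Cre in cKO alone, was at 3005 to 4664 CPM in cKO and 6168 to 7212 CPM in WT. Of the 12, 2 had every cKO library below every WT library (7.20% of all genes did), and 0 the reverse. Beside Tmem119 this was Cx3cr1, at 6069 to 6846 CPM in cKO and 6975 to 7981 CPM in WT (edgeR adjusted p = 0.33). Over the 12 markers the median log2 fold change, cKO against WT, was −0.046, and 4 were above 0. Over the marker lists of 8 other cell types no gene passed. Sums in cKO and WT were 67.2 to 133 and 73.3 to 111 CPM for border-associated macrophages, 363 to 438 and 458 to 516 CPM for monocytes and neutrophils, and 24.7 to 55.8 and 42.8 to 53.6 CPM for platelets. They were 88.4 to 141 and 134 to 140 CPM for astrocytes, 224 to 331 and 225 to 256 CPM for the oligodendrocyte lineage, 57.4 to 76.5 and 72.8 to 80.5 CPM for endothelial and mural cells, 1.59 to 4.10 and 1.87 to 2.15 CPM for neurons, and 0.981 to 2.03 and 2.12 to 2.44 CPM for lymphocytes. Some sums came mostly from 1 gene. In the monocyte and neutrophil list, Csf3r was at 353 to 428 CPM in cKO and 450 to 510 CPM in WT. In the same list S100a8 and S100a9 reached no more than 0.184 and 0.2145 CPM. Slc1a3 led the astrocyte sum, at 74.75 to 130 CPM in cKO and 122 to 127 CPM in WT. Gp9 led the platelet sum, at 22.1 to 53.7 CPM in cKO and 36.5 to 50.5 CPM in WT. Of the 8 endothelial and mural genes, Cldn5, Rgs5 and Kcnj8 were at 0 in every library, while Pecam1 was at 51.8 to 73.7 CPM, Cdh5 at 4.06 to 6.03 CPM, Pdgfrb at 0.705 to 4.53 CPM, Flt1 at 0.291 to 1.12 CPM and Acta2 at no more than 0.251 CPM. The libraries also differed within groups: Xist reached 69.4 to 243 CPM in 4 libraries (replicates 2 and 4 of cKO, replicates 2 and 3 of WT) and no more than 0.658 CPM in the remaining 3. Transcripts rich in GC were low in some libraries and high in others: across genes, GC content and the departure of a library from the average had a rank correlation of −0.522 for cKO replicate 1, the lowest, and 0.442 for cKO replicate 4, the highest. The part of these differences in the results below was not tested except where a value is given.

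Promoter sequences of 3 members are shown because these genes mark the contrasts in the data: Fmnl1 and Fmnl2, close paralogs at very different levels, and Vasp, the member with the smallest p. Each is the 250 bases before the start in the RefSeq table, 5′ to 3′ in the direction of transcription, and the choice of genes was made after their values were seen. The table is of the GRCm38.p6 build, not of the build named for the counts. Capitals mark matches, on either strand, to GGGCGG (GC box), GAGGAA (a core bound by PU.1, the ETS factor of macrophages) and GGAAGT (a general ETS core).
Fmnl1, chr11:103170888-103171137, plus strand: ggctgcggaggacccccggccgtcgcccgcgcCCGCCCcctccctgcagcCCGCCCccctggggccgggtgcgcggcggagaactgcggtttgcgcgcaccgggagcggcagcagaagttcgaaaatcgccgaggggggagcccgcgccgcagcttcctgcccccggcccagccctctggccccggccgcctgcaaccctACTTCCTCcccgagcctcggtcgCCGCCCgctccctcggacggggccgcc
Fmnl2, chr2:52857618-52857867, plus strand: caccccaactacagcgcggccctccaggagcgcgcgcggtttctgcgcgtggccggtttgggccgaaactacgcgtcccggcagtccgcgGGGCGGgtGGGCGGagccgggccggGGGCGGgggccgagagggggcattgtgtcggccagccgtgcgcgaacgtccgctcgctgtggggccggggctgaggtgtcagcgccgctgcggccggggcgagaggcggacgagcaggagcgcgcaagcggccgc
Vasp, chr7:19271855-19272104, minus strand: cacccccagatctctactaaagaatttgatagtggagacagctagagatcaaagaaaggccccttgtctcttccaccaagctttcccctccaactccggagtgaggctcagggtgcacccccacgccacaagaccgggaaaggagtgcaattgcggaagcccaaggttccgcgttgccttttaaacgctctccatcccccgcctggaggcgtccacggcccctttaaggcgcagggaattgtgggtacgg
The Fmnl1 window held 3 GC boxes, all on the reverse strand, and 1 reverse match each to GAGGAA and GGAAGT, which overlap. The Fmnl2 window held 3 forward GC boxes and neither ETS motif. The Vasp window held no match to any motif searched, the others being TATAAA and the CArG box, the element bound by SRF. Over the 250 bases before the start of all 32851 promoters in the table, 32.7% held GGGCGG, 23.3% GAGGAA, 19.7% GGAAGT, 12.4% TATAAA and 1.47% a CArG box. A window held 34 CpG dinucleotides in Fmnl1, 40 in Fmnl2 and 12 in Vasp, against a median of 6 over all. The RefSeq table gave 12 promoters for 9 members, Diaph1 not being used here, and none of the 12 held a CArG box or TATAAA. The Fmnl3 window held neither ETS motif. GAGGAA also had a match for Evl, Inf2 and Diaph2, and GGAAGT for Daam1 and Diaph2. A link between these motifs and the level of a gene was not tested.

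Microglia held these families very unevenly. Divided by the length of the longest annotated transcript, the level of Fmnl3 in WT was 186 ± 4.34 CPM per kb (SD, n = 3) and that of Fmnl1 176 ± 13.7 CPM per kb. Vasp followed at 145 ± 10.6 CPM per kb and Evl at 126 ± 8.55 CPM per kb. Averaged over all 7 libraries, cKO and WT, these 4 lay above 96.3% or more of the genes tested that had an annotated length. The ranges of Fmnl3 and Fmnl1 overlapped over the WT libraries, while Fmnl1 was above Vasp, and Vasp above Evl, in every comparison of a WT library with another.

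The remaining formins were far lower. In WT, Diaph1 was at 6.26 ± 0.622 CPM per kb, Fmnl2 at 4.52 ± 0.176, Diaph2 at 4.43 ± 1.04, Daam1 at 1.92 ± 0.118 and Inf2 at 0.248 ± 0.114 CPM per kb. Of these neighbours, the ranges of Fmnl2 and Diaph2 overlapped and the others did not. Enah, the Ena/VASP member best known from neurons and fibroblasts, was last at 0.0335 ± 0.0102 CPM per kb. In cKO the means ran Vasp (184 ± 42.9 CPM per kb, SD, n = 4), Fmnl1 (172 ± 14.7), Fmnl3 (168 ± 24.8) and Evl (133 ± 14.5), with ranges that overlapped between each neighbour, so this order of the top 4 is not larger than the spread between mice. Below them the order was Diaph1, Diaph2, Fmnl2, Daam1, Inf2 and Enah. The length used matters for some: with the median transcript length in place of the longest, Evl in WT was at 144 and Vasp at 145 CPM per kb, with overlapping ranges, Inf2 was at 0.355 and Enah at 0.130 CPM per kb.

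**Figure D1:**
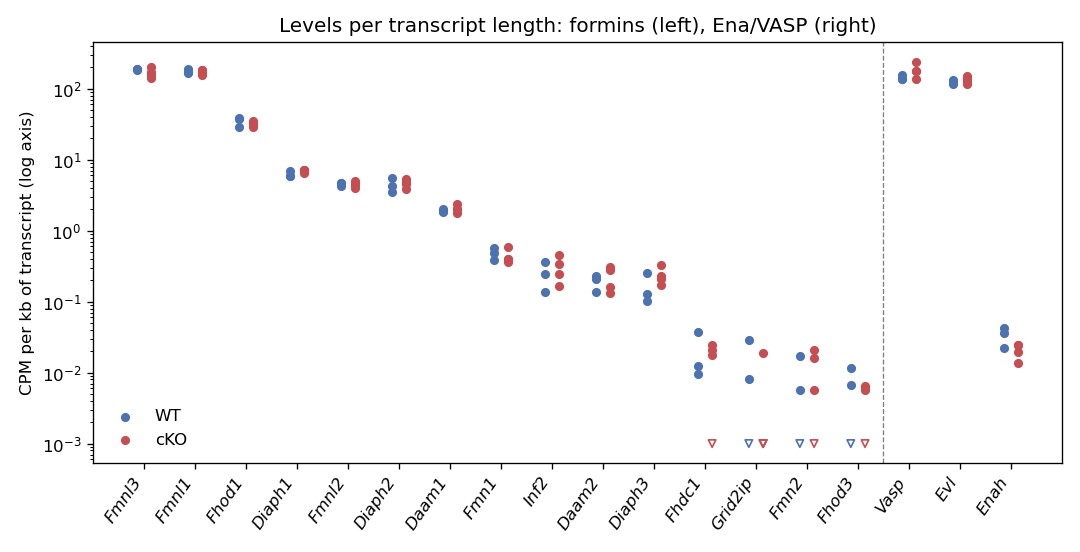
CPM per kb of the longest annotated transcript, on a log axis, for all 15 formins and the 3 Ena/VASP genes, ordered by the WT mean within each family. Each point is 1 library (WT blue, n = 3; cKO red, n = 4), and open triangles stand for libraries with no count. Fmnl3, Fmnl1, Vasp and Evl sit above 100 CPM per kb in both groups.

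Among the 15 formins of the mouse, measured per length within each library, Fmnl1 made up 40.9% to 44.9% and Fmnl3 41.1% to 46.9% of the formin transcripts. Fhod1, a formin of stress fibres that is no member of the set, came next with 7.27% to 9.23%. The diaphanous formin Diaph1 made up 1.62% to 1.92% in cKO and 1.41% to 1.62% in WT. Fmnl2, Diaph2, Daam1 and Inf2 together with every other formin were each at most 1.54% in every library. Among Ena/VASP transcripts Vasp made up 53.8% to 61.4% in cKO and 50.8% to 55.4% in WT, ranges that overlap. Evl made up nearly all of the rest, since the share of Enah was at most 0.0166%.

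None of the 9 members tested rose or fell between cKO and WT. By edgeR's quasi-likelihood test with Benjamini-Hochberg adjustment over all 11991 genes tested, 0 of 9 passed at 0.05, where 0.359% of all genes passed. At an unadjusted p under 0.05 there were again 0 of 9, where 16.5% of all genes lay. DESeq2 and limma-voom each also called 0 of 9. In 0 of 9 was every cKO library above, or every one below, every WT library, while 8.86% of all genes were higher in that sense and 7.20% lower. The log2 fold change, cKO against WT, was above 0 in 6 members and below 0 in 3, with a median of 0.08 (−0.01 over all genes). Its median size was 0.09, against 0.18 over all genes, and 7 of 9 were within 0.2 of 0. For 7 of the 9 the 95% interval lay within 0.5 of 0 on the log2 scale, the exceptions being Vasp and Inf2. In sorted bulk samples such as these, fewer cells of a type and less RNA per cell cannot be told apart.

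**Figure D2:**
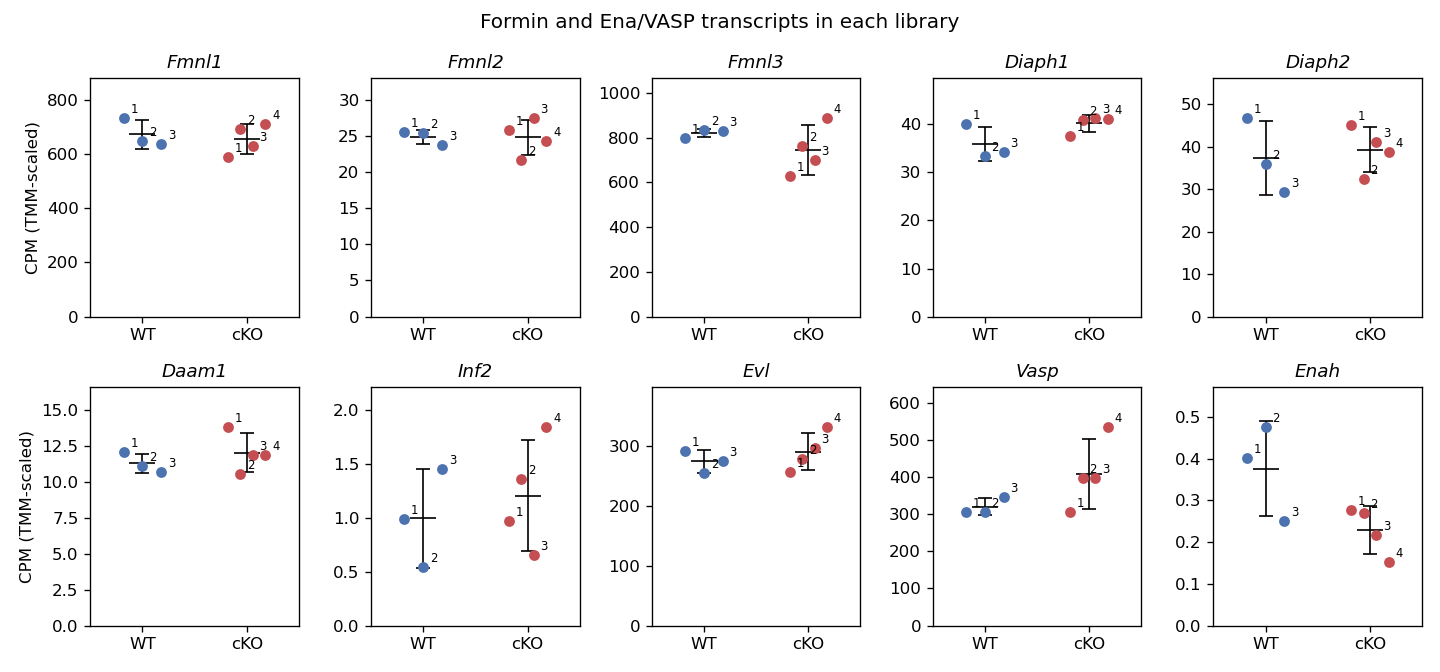
TMM-scaled CPM of each member in each library, numbered by replicate, on axes that start at 0. Bars give the mean and SD (WT n = 3, cKO n = 4). Ranges of the groups overlap in all 10 panels, and cKO replicate 4 is highest in the Vasp, Evl, Fmnl3 and Inf2 panels.

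Fmnl1, the leukocyte formin of the FMNL subfamily and the srGAP2 partner, was at 590.1, 695, 630.4 and 710.2 CPM in cKO replicates 1 to 4, and the WT replicates 1 to 3 had 734, 648 and 638 CPM. The highest library was a WT one and the lowest a cKO one, with the other 5 interleaved. The cKO mean of 656 ± 56.1 CPM (SD, n = 4) stood against a WT mean of 673 ± 52.5 CPM (SD, n = 3), a log2 fold change of −0.04 (SE 0.11, 95% interval −0.28 to 0.20, edgeR adjusted p = 0.91). The interval corresponds to 0.826 to 1.15 times the WT level.

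Fmnl3, its close paralog, which shapes filopodia and cell adhesions, was at 628, 764, 699 and 887 CPM in cKO and at 799, 833 and 831 CPM in WT. The first 3 cKO libraries were below every WT library and the fourth was above them all. The log2 fold change was −0.14 (SE 0.12, 95% interval −0.41 to 0.13, edgeR adjusted p = 0.62). The spread was 14.8% of the mean in cKO and 2.34% in WT. Without cKO replicate 4 the value stayed short of the threshold, and it was below 0 under each of the 19 alternatives, from −0.24 to −0.08.

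Fmnl2, also of this subfamily, drives lamellipodial protrusion in other cells. Its levels were 25.8, 21.7, 27.5 and 24.3 CPM in cKO and 25.5, 25.5 and 23.8 CPM in WT, so the WT values lay inside the cKO range. The log2 fold change was −0.01 (SE 0.12, interval −0.27 to 0.27).

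Diaph1, mDia1, nucleates and elongates filaments. It was at 37.6, 41.0, 41.3 and 41.1 CPM in cKO and at 40.0, 33.5 and 34.2 CPM in WT. The libraries of cKO replicates 2 to 4 lay above all WT libraries, but cKO replicate 1 lay below WT replicate 1. The means were 40.2 ± 1.79 CPM (SD, n = 4) and 35.9 ± 3.57 CPM (SD, n = 3), with a log2 fold change of 0.17 (SE 0.11, interval −0.08 to 0.41, edgeR adjusted p = 0.50). A two-sided exact permutation test over the 35 divisions of the 7 libraries gave p = 0.086 (0.77 adjusted over the 9 members), where the smallest possible is 0.029. Among libraries with Xist (2 cKO, 2 WT) the log2 difference was 0.28, and among those without (2 cKO, 1 WT) it was −0.02.

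Diaph2, a diaphanous-related formin like Diaph1, was at 45.0, 32.4, 41.1 and 38.7 CPM in cKO and 46.7, 36 and 29.4 CPM in WT. The WT libraries were the farther apart, with a spread of 23.4% of their mean. Daam1, a formin of Wnt planar polarity signalling, was at 13.8, 10.6, 11.9 and 11.9 CPM in cKO and 12.1, 11.1 and 10.7 CPM in WT. Neither differed beyond the spread: the log2 fold changes were 0.07 (SE 0.17) and 0.09 (SE 0.15). Inf2, a formin of the endoplasmic reticulum and mitochondria that also depolymerizes actin, was near 1 CPM, at 0.970, 1.35, 0.655 and 1.84 CPM in cKO and 0.987, 0.540 and 1.45 CPM in WT. Its interval, −0.66 to 1.21 on the log2 scale, is the widest of the members. Its spread between libraries was 42.4% of the mean in cKO and 45.9% in WT.

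Vasp, which elongates filaments at leading edges and adhesions and in macrophages at phagocytic cups, came nearest to the threshold. Its levels were 305, 397, 397 and 535 CPM in cKO replicates 1 to 4. The WT libraries had 307, 307 and 348 CPM. Replicates 2, 3 and 4 of cKO were above every WT library and cKO replicate 1 was below them all. The means were 409 ± 94.95 CPM (SD, n = 4) and 321 ± 23.4 CPM (SD, n = 3), which is 1.27-fold (95% interval 0.995 to 1.63). The log2 fold change was 0.35 (SE 0.16, p = 0.054 and adjusted p = 0.31 by edgeR, and p = 0.20 by a two-sided exact permutation test, 0.77 adjusted over 9 members).

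The Vasp difference depended on single libraries. Leaving out cKO replicate 1 gave 0.45, leaving out cKO replicate 4 gave 0.19, and it was 0.18 with the replicate number as a block. Replicate number 4 occurs only in cKO, so the block also takes cKO replicate 4 out of the group comparison. Among libraries with Xist it was 0.50 (466 against 327 CPM, 2 and 2 libraries) and among those without it 0.18 (351 against 307 CPM, 2 and 1 libraries). Splitting by the run of mouse numbers gave 0.18 for the lower numbers (1058 to 1062) and 0.50 for the higher (1101 to 1109). This split and that by Xist exchange only cKO replicates 2 and 3, both at 397 CPM. They are therefore not separate checks, and Xist and mouse number cannot be told apart here. The Vasp transcript is 58.0% GC, above 89.0% of the genes tested. The GC correlations of cKO replicates 1 to 4 were −0.522, 0.171, −0.419 and 0.442, beside Vasp levels of 305, 397, 397 and 535 CPM. The part of GC content alone in the Vasp difference was not tested. With GC content and length offsets Vasp passed edgeR's test, at 0.42 and adjusted p = 0.041. It was the 1 member of 9 that did so, in a fit that called 5.54% of all genes. Over the 19 alternatives the value ran from 0.18 to 0.45 and this was the 1 that called it.

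**Figure D3:**
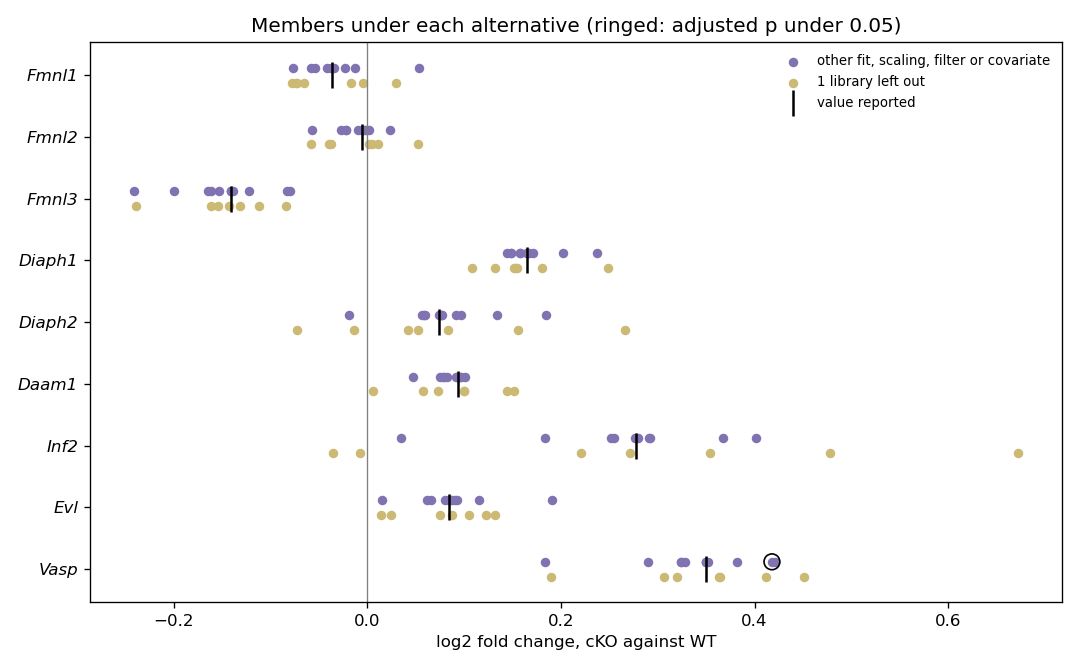
Log2 fold change of the 9 tested members under 12 alternative fits (purple), with each of 7 libraries left out (yellow) and as reported (black bar); the ring marks an adjusted p under 0.05. Vasp, Diaph1, Daam1 and Evl stay above 0 and Fmnl3 below 0 throughout, and the ring falls on Vasp alone.

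Evl, the haematopoietic Ena/VASP member, was at 257, 278, 297 and 332 CPM in cKO and at 292, 255 and 276 CPM in WT. The lowest library was a WT one and cKO replicate 1 was next. The log2 fold change was 0.08 (SE 0.11, interval −0.16 to 0.33, edgeR adjusted p = 0.77). Its transcript is 61.0% GC, higher than that of Vasp, and the offsets for GC content and length gave 0.19. A gene on the opposite strand, Degs2, overlaps Evl in the GENCODE M21 annotation, and without a stated strand setting reads from the shared stretch cannot be told apart. Degs2 itself was at 11.3 to 21.3 CPM in cKO and 17.3 to 29.9 CPM in WT. Enah had 8, 8, 6 and 5 counts in cKO and 11, 15 and 9 in WT, too few for the filter, and its CPM ranges overlapped (0.153 to 0.277 in cKO, 0.251 to 0.476 in WT).

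The genes whose pattern over the 7 libraries was most like that of Vasp, by root mean square difference of standardized log2 CPM, were Mea1 (0.0958 SD), Gnb2 (0.101 SD), a G protein subunit, and Alox5ap (0.127 SD), which serves leukotriene synthesis. The median over 8315 genes compared was 1.26 SD. Transcripts of Mea1 and Gnb2 are 58.6% and 60.0% GC, and that of Alox5ap 52.5%, against a median of 50.2% over the genes tested. The nearest to Diaph1 were Wdtc1 (0.242 SD), Arap3 (0.264 SD) and Thra (0.316 SD).

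The other genes of the pathway were read from 5 lists, and 1 gene of them passed, Srgap2 itself, which stood in the list of formin partners and fell (log2 fold change −1.53, SE 0.17, edgeR adjusted p = 0.0053). Of the 8 formins outside the set, 4 were tested and none had an unadjusted p under 0.05. The cKO and WT means were 126 and 138 CPM for Fhod1, and 5.13 and 5.63 CPM for Fmn1. Diaph3, a formin of dividing cells, was at 1.08 and 0.745 CPM (log2 fold change 0.53, SE 0.40), and Daam2 at 0.799 and 0.702 CPM.

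The list of actin, profilin and capping genes had a median farther from 0 than the elongators, a difference that was not tested, and no gene of it passed. Of 11 genes for actin, profilin and capping protein, the monomers used at barbed ends and the caps that oppose growth there, 0 passed, 7 had an unadjusted p under 0.05 with values above 0 (16.5% of all genes, in either direction), and 5 had all cKO libraries above all WT libraries (8.86% of all genes). The median was 0.53. Capzb and Capza1, the capping protein subunits that Ena/VASP proteins counteract, had 0.55 (SE 0.11, edgeR adjusted p = 0.070) and 0.53 (SE 0.11, edgeR adjusted p = 0.075). Pfn1, the profilin that delivers actin to FH1 domains and to VASP, was at 842, 1172, 1140.0 and 1389 CPM in cKO and 669, 762 and 783 CPM in WT, so that the groups did not overlap (0.62, SE 0.16, edgeR adjusted p = 0.11). Actg1 was at 304 and 189 CPM (0.69, SE 0.15).

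Of 15 tested binding partners of Ena/VASP proteins, 0 passed and 5 had an unadjusted p under 0.05 (16.5% of all genes), 4 with values above 0 and 1 below. Zyx, the adhesion protein zyxin that recruits VASP, had 0.48 (SE 0.13, edgeR adjusted p = 0.13), Tes, which binds Enah, 0.39 (SE 0.13), Abi1 0.34 (SE 0.12) and Ablim1 −0.72 (SE 0.26). The list's median was 0.25. Of 17 tested formin partners, 1 passed, Srgap2, and the median was −0.04. Mapre1, the microtubule plus-end protein EB1, had 0.43 (SE 0.10, edgeR adjusted p = 0.092), Cap1, a cyclase-associated protein that recycles actin, 0.42 (SE 0.11), Fnbp1 0.29 (SE 0.12), and Dvl1, the Wnt adaptor that binds Daam1, −0.49 (SE 0.12, edgeR adjusted p = 0.11).

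SRF and its coactivators respond to the pool of actin monomers that formins draw down. Of 8 listed genes, which include SRF targets, 5 were tested and 0 passed. The targets Tagln2 and Egr1 had 0.60 (SE 0.20) and 0.62 (SE 0.21). The coactivators Mkl2 and Mkl1 had 0.17 (SE 0.18) and −0.08 (SE 0.12). The calls in the actin, profilin and capping list depended on the fit: among others, 7 of its 11 genes rose with the Xist covariate (6.21% of all genes rose), 6 with DESeq2 (3.12%), 5 without cKO replicate 1 (0.933%) and 6 with the GC content and length offsets (4.48%). The members had 0 calls under the first 3 of these fits and 1, Vasp, under the last. In the actin, profilin and capping list, 0 of 11 genes passed with RLE or upper-quartile factors, limma-voom unweighted or edgeR's fit not robust. Again 0 passed with genes kept at 1 CPM in 3 libraries, or with any single library other than cKO replicate 1 left out.

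**Figure D4:**
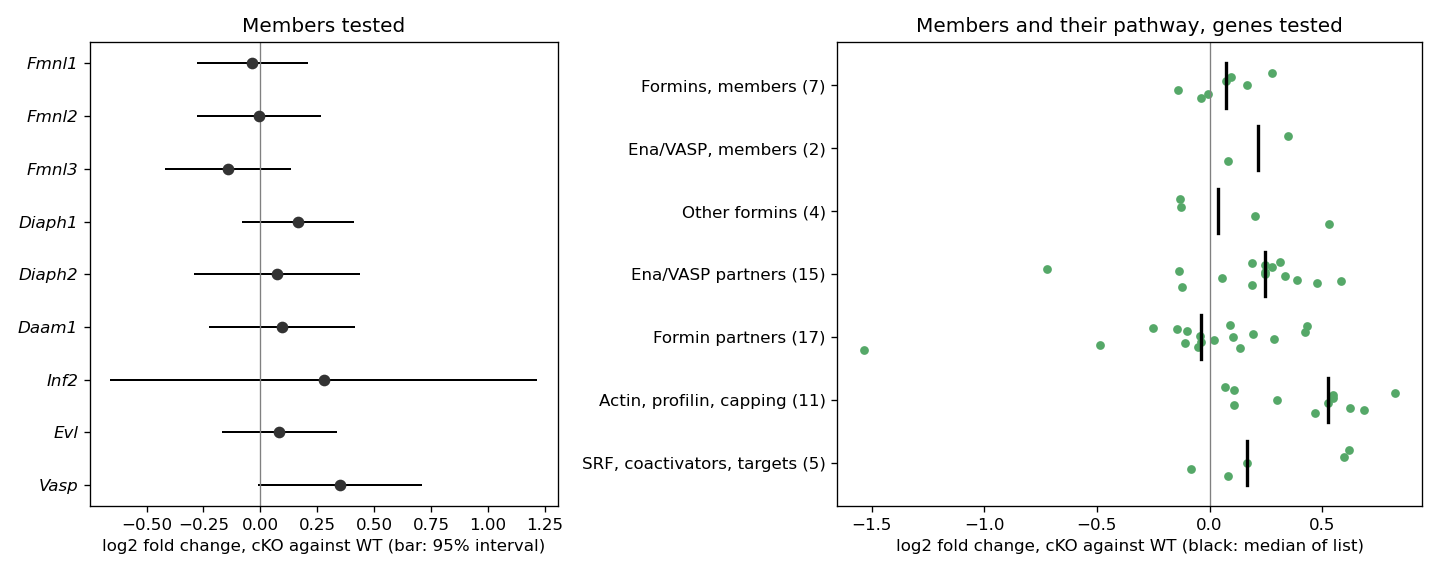
Left, log2 fold change (cKO against WT) of the 9 members tested, with 95% interval. Right, the same value for every tested gene of the 2 member families and the 5 pathway lists, with the number tested in brackets and the list median as a black bar. The member formins centre near 0 (median 0.07) and the actin, profilin and capping list at 0.53; the differences between lists were not tested.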

How the data were processed

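The authors deposited 1 table of whole-number counts per gene for the 7 libraries, not normalized. The submitters' processing notes name DRAGEN and the build GRCm39; which annotation, counting rule and strandedness applied is not given in the sources used here. Genes were kept with filterByExpr (least count 10, least total count 15), which left 11991. Libraries were scaled with TMM factors and compared with edgeR 4.0.16 (R 4.3.3; quasi-likelihood F test, robust option, no covariate), with Benjamini-Hochberg adjustment over all genes tested and a threshold of 0.05. The fit was tested on simulated data. Levels are mean ± SD of CPM; log2 CPM used a prior count of 2. Each library came from a separate numbered mouse, so p-values set the group difference against the estimated spread between libraries of separate mice. Lengths and GC content came from GENCODE M21 (99.3% of genes tested), promoters from RefSeq (GRCm38.p6).

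The members, the 5 pathway lists, the 9 marker lists and the tests were chosen with earlier results of these data known. A further pathway list was chosen and is not reported here. Of 165 symbols in these and the members' lists 164 were matched. Named are the members, Srgap2, each listed gene past the threshold and up to 4 others per pathway list with the smallest p, and the 3 genes nearest to the 2 members with the smallest p. Tmem119, Cx3cr1, Csf3r, S100a8, S100a9, Slc1a3, Gp9, the 8 endothelial and mural genes and Degs2 were named after their values were seen. Alternatives were other scaling factors (RLE, upper quartile), DESeq2 1.42.0, limma-voom (limma 3.58.1) with or without quality weights per sample, edgeR's fit not robust, keeping all genes with counts, keeping genes at 1 CPM in 3 libraries, each library left out, blocks by replicate number and by mouse number, Xist as a covariate, offsets for GC content and length (loess, span 0.3), and the median transcript length.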

Additional observations from a re-analysis of the deposited data

Results flagged for a closer look

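The Diaph1 level of cKO replicate 1, 37.6 CPM, stood apart from the other cKO libraries, of which the nearest was at 41.0 CPM. The gap was 0.919 of the range of the 4 libraries, above Dixon's 95% critical value for a group of that size. Chance flags about 1 in 20 groups, and 35 genes were examined in this way.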

How the results depend on the processing

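No member passed the threshold in 18 of the 19 alternatives; with offsets for GC content and length 1 did, Vasp. Over all genes 43 passed in the reported fit. The number was 538 with DESeq2, 904 with sample quality weights, 89 with no filter, 170 with the mouse numbers as a block, 1056 with the Xist covariate, 660 with the GC content and length offsets, and 4 to 142 with 1 library left out. The smallest exact permutation p of a member was 0.086; with 1 library left out (0.067 to 0.20) the divisions are too few for any p under 0.05, so those values say nothing about stability. Replicate numbers were shared by 3 pairs of libraries, whose deviations correlated at 0.387, 0.069 and −0.173, so they were not taken as pairs; with the replicate block 288 genes and 0 members passed. Values near 0 changed sign. Fmnl1 ran from −0.078 to 0.030 with 1 library left out and was 0.053 with the offsets. Fmnl2 ran from −0.058 to 0.052, and was 0.023 with quality weights and 0.0017 with the mouse number block. Diaph2 ran from −0.073 to 0.266, and was −0.019 with the Xist covariate. Inf2 ran from −0.035 to 0.672 (−0.0072 without cKO replicate 4). Outside the set, Fmn1 ran from −0.32 to 0.0061 and Mkl1 from −0.136 to 0.0086, and Mkl1 was 0.018 with the offsets. The cause was not tested. DESeq2 gave no adjusted p for Inf2. Enah had at most 15 counts in a library and was not tested in the reported fit. It entered the fits with no filter and without WT replicate 3, where 0 of 3 Ena/VASP members passed.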
